A study of Mus musculus with 3 samples.

Results

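The collagen genes of mammary tumours from the FVB-MMTV-Neu mouse strain were measured by RNA-seq in 3 untreated tumours. The strain carries the rat Neu (Erbb2) oncogene as a transgene under the MMTV promoter, which is active mainly in mammary epithelium. All 3 samples belong to 1 group, and they are called tumours 1, 2 and 3 in the order of deposition. Per the protocols, the tumours had been grafted orthotopically into syngeneic mice, had reached a diameter of 5 mm and were then left without treatment for 7 days, whereas the design text has them come from MMTV-Neu mice, so the genotype of the host tissue is uncertain. The labels state neither the age of the animals nor whether the tumours had separate donors. The members are all rows whose symbol is Col, a number, the letter a and a number. They came to 44 genes of 47480 in each table.

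Collagens are secreted proteins whose chains wind by threes into a triple helix. Fibrillar collagens (types I, II, III, V, XI, XXIV and XXVII) build the banded fibres of connective tissue, and type I is the main product of fibroblasts in mammary stroma. Type IV forms the sheet of the basement membrane under epithelium and around vessels, and types VIII and X form hexagonal networks. FACIT collagens (types IX, XII, XIV, XVI, XIX, XX and XXII) sit on the surface of fibrils. Type VI makes beaded filaments, type VII the anchoring fibrils of skin and other squamous epithelia, types XV and XVIII are the proteoglycan-bearing multiplexins of basement membrane zones, and types XIII, XVII, XXIII and XXV span the cell membrane. The members split into 11 fibrillar, 6 basement membrane, 3 network, 9 FACIT, 6 beaded filament, 1 anchoring fibril, 2 multiplexin and 4 transmembrane genes, with Col26a1 and Col28a1 in none of these classes.

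The libraries held 47449113, 11388756 and 17147378 estimated counts in tumours 1, 2 and 3. By the names of the deposited files, tumour 1 was run in lane 1 while tumours 2 and 3 shared lane 5, so lane and the difference of tumour 1 cannot be told apart, and the comparison of tumour 2 with tumour 3 is the one within a lane. Each tumour is 1 library, so no difference between tumours has a replicate check and none was tested. Levels below are CPM, the usual depth-scaled count, here relative to library totals after TMM scaling, and levels of different genes are compared as CPM per kilobase of the longest annotated transcript. Epithelial markers were present in every tumour, with the luminal keratin Krt8 at 407, 734 and 1038 CPM and 6 luminal markers summing to 1638, 1564 and 2300 CPM. The libraries also differed in other tissue. The summed level of 7 skeletal muscle markers was 2.31 CPM in tumour 1, against 44658 CPM in tumour 2 and 18791 CPM in tumour 3, and in tumour 1 all 7 had a count above 0.

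Collagen genes took 1.11% of the counts of tumour 1, 0.766% of tumour 2 and 0.558% of tumour 3, with exact binomial 95% intervals of 1.11 to 1.12%, 0.761 to 0.771% and 0.554 to 0.561% that cover counting error only. As a summed level this was 7633, 10837 and 6075 CPM. The order of tumours 1 and 2 thus depended on the scaling. Of the 44 genes, 42, 40 and 43 had a count above 0, and 33 passed the filter on low counts. The filter asks, in every library, for the equivalent of 10 counts at the median library size, so a gene close to 0 in 1 tumour failed it. The 11 that failed were Col17a1, Col10a1, Col22a1, Col25a1, Col13a1, Col26a1, Col6a4, Col28a1, Col4a6, Col4a3 and Col19a1. They are described by their counts.

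**Figure D1:**
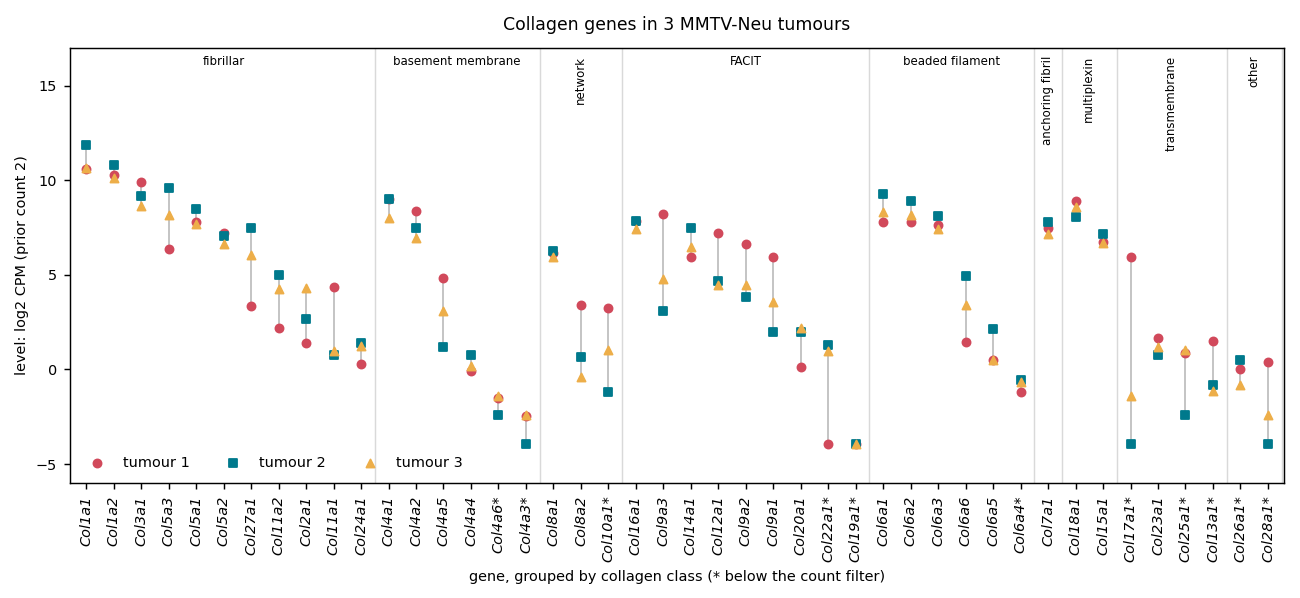
Level of each of the 44 collagen genes as log2 CPM (prior count 2) in tumour 1 (circle), tumour 2 (square) and tumour 3 (triangle), grouped by class and ordered by mean CPM within a class. A grey bar joins the lowest and highest tumour, an asterisk marks genes that failed the filter, and a count of 0 is drawn at the level that the prior count sets. Col1a1 and Col1a2 lead in all 3 tumours, whereas Col9a3, Col27a1 and Col17a1 have long bars.

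Fibrillar collagens made up most of the collagen signal in every tumour. As a share of all collagen counts per transcript length, the 11 fibrillar genes held 53.8% in tumour 1, 68.6% in tumour 2 and 62.0% in tumour 3, or 61.5 ± 7.42% (SD, n = 3). The 6 basement membrane genes held 9.90, 5.63 and 5.62%. The 3 network genes held 1.41, 0.826 and 1.23%. Below the fibrillar genes the class order differed, since FACIT genes came next in tumour 1 and beaded filament genes in tumours 2 and 3, on the longest transcript of each gene. With the median transcript length the mean beaded filament share was 2.95%, below basement membrane genes at 9.79% and FACIT genes at 5.77%. FACIT genes held 15.8, 4.54 and 6.56%, and their mean share was 8.98% over the 3 tumours and 5.55% without tumour 1. Beaded filament genes held 8.76, 14.95 and 14.7%, multiplexins 7.91, 4.06 and 8.42%, and Col7a1 alone 1.41, 1.30 and 1.44%. The transmembrane genes were below 1% in all 3, at 0.924, 0.0247 and 0.0817%. The fibrillar signal was 5.44 times the basement membrane signal in tumour 1, 12.2 times in tumour 2 and 11.03 times in tumour 3. On the log2 scale that ratio averaged 3.17 ± 0.64 (SD, n = 3), and it was above 0 in 3 of 3 tumours.

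**Figure D2:**
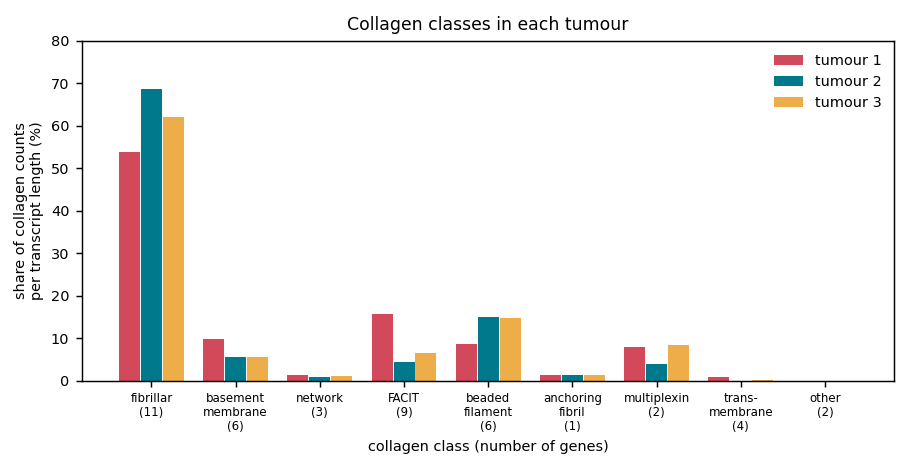
Share of each collagen class in the collagen counts per transcript length, in percent, for tumours 1, 2 and 3. Bars are single libraries and carry no error. Fibrillar genes hold 53.8 to 68.6%, and the FACIT share of 15.8% in tumour 1 stands against 4.54 and 6.56% in tumours 2 and 3.

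The type I and III chains led the fibrillar class. Col1a1 (chromosome 11, 94936224 to 94953042) encodes the alpha-1 chain of type I collagen and was at 1576, 3695 and 1625 CPM in tumours 1, 2 and 3. With TMM, tumour 2 stood above the others, with a Poisson 95% interval of 3654 to 3738 CPM. Tumour 1 was at 0.970 times tumour 3. With library totals Col1a1 was at 0.230, 0.261 and 0.149% of counts, with tumour 2 still highest and tumour 1 next. Per length Col1a1 was the highest collagen gene in every tumour, at 266, 623 and 274 CPM per kilobase. That put it at place 157, 150 and 302 of the 12343 genes past the filter with a known length. Col1a2, the alpha-2 chain (chromosome 6, 4504814 to 4541544), was at 1228, 1803 and 1109 CPM, highest in tumour 2 with TMM and in tumour 1 with library totals. Such a change of the highest tumour was seen for 9 of the 33 genes past the filter, namely Col1a2, Col5a1, Col6a3, Col16a1, Col7a1, Col15a1, Col8a1, Col24a1 and Col4a4. Col3a1 (chromosome 1, 45311538 to 45349706), the type III chain that is abundant in soft and healing tissue, was highest in tumour 1, with 965 CPM against 566 and 402 CPM in tumours 2 and 3. Col1a1, Col1a2 and Col3a1 together took 48.9, 56.9 and 52.3% of the collagen signal per length. The median collagen gene past the filter was at 16.1, 19.96 and 12.2 CPM per kilobase, against 6.52, 5.11 and 5.50 for all such genes.

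Among the other fibrillar chains the spread ranged widely. Type V nucleates and limits the width of type I fibrils. Its Col5a1 was at 220, 357 and 209 CPM and Col5a2 at 147, 132 and 99.8 CPM. Each was within 2-fold, but with library totals Col5a2 spanned 2.35-fold. Col5a3, the third chain, had 82.1 CPM in tumour 1 against 773 CPM in tumour 2 and 283 CPM in tumour 3. Col27a1, a cartilage-associated fibrillar chain, was at 10.2 against 178 and 66.7 CPM, and Col11a2 at 4.57 against 32.3 and 19.1 CPM. In these 3 genes tumour 1 was lowest, tumour 2 highest and tumour 3 between. Col11a1, the partner of Col11a2 in type XI collagen, had the opposite order, with 20.5 CPM in tumour 1 (19.5 to 21.6) against 1.62 and 1.91 CPM, which rest on 13 and 30 counts. Col2a1, the main chain of cartilage, was highest in tumour 3, at 2.59, 6.34 and 19.7 CPM. Of 10 cartilage and bone markers, 4 passed the filter, namely Sox9, a transcription factor of cartilage and of some epithelia (44.9, 72.8 and 63.6 CPM), the cartilage matrix gene Comp (4.57, 15.3 and 16.59 CPM), and the bone cell regulators Runx2 (9.87, 9.94 and 8.52 CPM) and Sp7 (2.26, 8.82 and 7.44 CPM). Their summed level was 61.8, 107 and 96.2 CPM. The other 6 were at or near 0. Matn1 and Hapln1 had 0 counts in all 3 tumours, the aggrecan gene Acan had 2, 0 and 0, Matn3 had 12, 0 and 0, Ibsp had 1, 0 and 0, and Bglap had 4, 3 and 2. The part of these markers in the collagen levels was not tested. Col24a1 was low throughout, at 1.17, 2.61 and 2.29 CPM.

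Promoter sequences are shown for fibrillar genes that lay on opposite sides in tumour 1, and for Col9a1, which lay with the higher ones. They are the 250 bases before the annotated start, from RefSeq on GRCm38.p6, where windows were found for 35 of the 44 genes. Capitals mark 4 short motifs searched on both strands, which are the CCAAT box, the TATAAA form of the TATA box, the GGGCGG form of the GC box and the ACAAAG core bound by Sox factors. None of the matches shown overlaps another. Where a gene lies on the minus strand the sequence is its reverse complement, so that all read towards the start.
Col3a1, chr1:45311288-45311537, plus strand: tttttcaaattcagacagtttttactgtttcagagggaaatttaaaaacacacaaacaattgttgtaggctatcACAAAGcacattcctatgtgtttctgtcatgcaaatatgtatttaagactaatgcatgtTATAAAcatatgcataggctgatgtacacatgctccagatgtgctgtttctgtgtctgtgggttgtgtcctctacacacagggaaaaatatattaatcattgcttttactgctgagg
Col11a1, chr3:114030290-114030539, plus strand: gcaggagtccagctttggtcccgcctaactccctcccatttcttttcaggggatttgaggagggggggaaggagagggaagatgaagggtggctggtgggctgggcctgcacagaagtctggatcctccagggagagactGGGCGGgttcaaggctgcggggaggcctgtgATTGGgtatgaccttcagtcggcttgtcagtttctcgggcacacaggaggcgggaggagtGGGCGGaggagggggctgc
Col5a3, chr9:20815068-20815317, minus strand: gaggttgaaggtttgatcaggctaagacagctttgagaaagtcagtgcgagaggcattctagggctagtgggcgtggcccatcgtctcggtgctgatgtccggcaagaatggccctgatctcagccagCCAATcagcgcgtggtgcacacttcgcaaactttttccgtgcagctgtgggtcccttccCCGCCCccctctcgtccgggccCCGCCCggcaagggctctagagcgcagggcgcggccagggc
Col27a1, chr4:63215162-63215411, plus strand: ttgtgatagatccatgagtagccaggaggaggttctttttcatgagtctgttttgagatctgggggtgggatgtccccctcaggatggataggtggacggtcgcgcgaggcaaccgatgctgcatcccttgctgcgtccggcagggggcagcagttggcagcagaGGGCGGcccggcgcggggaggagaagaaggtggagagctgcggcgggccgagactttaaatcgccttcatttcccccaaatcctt
Col9a1, chr1:24177360-24177609, plus strand: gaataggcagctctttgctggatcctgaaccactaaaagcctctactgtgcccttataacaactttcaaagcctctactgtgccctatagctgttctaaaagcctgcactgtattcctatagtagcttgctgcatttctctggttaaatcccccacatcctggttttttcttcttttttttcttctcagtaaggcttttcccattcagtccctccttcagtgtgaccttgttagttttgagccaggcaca
The Col3a1 window held 1 TATAAA and 1 ACAAAG and had a GC content of 35.2%. The windows of Col5a3 and Col27a1 held 2 and 1 GC boxes at 62.8 and 59.6% GC. That of Col11a1, which was highest in tumour 1, held 2 GC boxes at 62.4% GC. GENCODE M21, the source of gene positions here, starts Col27a1 at 63214004 on chromosome 4. By that annotation the Col27a1 window lies within the gene. The part of these motifs in the levels was not tested. The Col9a1 window shown held none of the 4 motifs, and the window of its other annotated start held 1 CCAAT. Over all 38 collagen windows, GGGCGG was found in 57.9%, against 32.7% of 32851 windows of all genes. CCAAT was in 34.2%, against 33.8%, TATAAA in 13.2%, against 12.4%, and ACAAAG in 10.5%, against 16.5%. These matches are letters in a window and not binding sites.

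The basement membrane chains Col4a1 and Col4a2 encode the common type IV heterotrimer. They lie head to head on chromosome 8 (11198423 to 11312826 and 11312805 to 11449287), with annotated starts that overlap by 22 bases. Col4a1 was at 519, 511 and 258 CPM and Col4a2 at 338, 176 and 122 CPM. With TMM, tumours 1 and 2 were level for Col4a1 and tumour 3 lower, whereas for Col4a2 tumour 1 was highest. With library totals tumour 1 was highest for both, with Col4a1 at 0.0757, 0.0361 and 0.0237% of counts. Genes farther along the chromosome that were far higher in tumour 1 lie outside this pair. Cul4a, 1656334 bases beyond Col4a2, had 1792 CPM in tumour 1 against 18.3 and 20.5 CPM. The nearest gene past the filter on that side, Rab20, at a distance of 4231 bases, was at 15.4 against 23.7 and 24.98 CPM, and Irs2 on the other side at 29.4 against 7.71 and 6.04 CPM. Whether the copy number of this region bears on the type IV genes was not tested.

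The other type IV chains were scarce. Col4a5, a chain of the kidney and of smooth muscle and skin basement membranes, had 28.2 CPM in tumour 1 against 2.24 and 8.52 CPM, and the Poisson intervals of the 3 tumours did not overlap. Its head-to-head neighbour Col4a6, 1308 bases away on the X chromosome, had 20, 1 and 5 counts. Col4a3 and Col4a4, which pair with Col4a5 in the glomerulus, are likewise head to head, 71 bases apart. Col4a4 was at 0.896, 1.62 and 1.08 CPM, and Col4a3 had 8, 0 and 2 counts, where a count of 0 allows up to 0.373 CPM in tumour 2. In each of these head-to-head pairs 1 gene passed the filter and its neighbour did not.

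Of the network collagens, Col8a1, a chain of vessel wall and of activated smooth muscle, had the least spread of the 33 genes with TMM, at 70.5, 76.4 and 62.2 CPM, or 69.7 ± 7.14 CPM (SD, n = 3). With library totals it spanned 1.90-fold. Its partner Col8a2 had 10.7 CPM in tumour 1 against 1.49 and 0.699 CPM, which rest on 12 and 11 counts. Col10a1, the collagen of hypertrophic cartilage, had 648 counts in tumour 1, against 3 and 31. This gene lies wholly within Nt5dc1, which is on the opposite strand and had 548, 12 and 34 counts. The strand setting was not stated and overlap of their exons was not examined, so the value of Col10a1 is uncertain.

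FACIT genes had the widest median spread of the classes past the filter, and Col9a3 the widest range of any of the 33 genes. The 3 chains of type IX collagen, which coats the thin fibrils of cartilage, were each highest in tumour 1 and lowest in tumour 2. Col9a3 was at 304 CPM in tumour 1 (299 to 308), against 8.33 CPM in tumour 2 (6.45 to 10.6) and 27.1 CPM in tumour 3 (24.6 to 29.8). Col9a2 was at 98.6 against 14.0 and 21.7 CPM, and Col9a1 at 61.8 against 3.85 and 11.9 CPM. Together the type IX chains took 10.9% of the collagen signal per length in tumour 1, against 0.458 and 1.84% in tumours 2 and 3. Col9a3 overlaps Tcfl5 on the opposite strand by 234 bases, and Tcfl5 had 2674, 9 and 13 counts. Col12a1, a FACIT of dense connective tissue, had 146 CPM in tumour 1 against 25.98 and 21.9 CPM.

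The remaining FACIT genes did not follow type IX. Col14a1, which binds fibrils in skin and tendon, was highest in tumour 2, at 61.8, 180 and 89.8 CPM. Col16a1 was at 231, 234 and 172 CPM, a 1.36-fold range that was 2.13-fold with library totals, and Col20a1 was low, at 1.04, 3.85 and 4.58 CPM. Col22a1, which is known from the junction of muscle and tendon, had 0 counts in tumour 1, which allows up to 0.0434 CPM, against 19 and 30 counts in tumours 2 and 3. The skeletal muscle markers were near 0 in the same tumour, with Ckm at 0.477 CPM against 32750 and 11606 CPM, and their part in this difference was not tested. Col19a1 had 0 counts in all 3 tumours.

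The main type VI chains were highest in tumour 2 with TMM, but with library totals Col6a3 was highest in tumour 1. Col6a1 was at 219, 611 and 322 CPM, Col6a2 at 226, 486 and 285 CPM, and Col6a3, the longest chain, at 199, 274 and 173 CPM. These 3 chains form the usual type VI monomer, and in tumours 2 and 3 they took 14.7 and 14.5% of the collagen signal per length, against 8.72% in tumour 1. Of the genes for the alternative long chains, Col6a6 had 2.65 CPM in tumour 1 against 30.2 and 10.5 CPM, and Col6a5 at 1.34, 4.35 and 1.33 CPM. Their estimates in tumour 2 were not whole (242.759 and 35.241), so single reads may be shared between related chains. Col6a4 had 26, 5 and 9 counts.

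The multiplexins and Col7a1 varied by less than 2-fold with TMM. Col18a1, whose C-terminal fragment is endostatin, was at 488, 269 and 389 CPM, Col15a1 at 109, 144 and 102 CPM, and the anchoring fibril gene Col7a1 at 178, 225 and 141 CPM. With library totals Col18a1 spanned 3.75-fold, at 0.0711, 0.0190 and 0.0357% of counts. Per length, Col15a1 was at 0.241, 0.580 and 0.283 times Col18a1. Col18a1 overlaps Slc19a1 on the opposite strand, which had 2555, 487 and 1124 counts.

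A single transmembrane collagen reached a high level. Col17a1, a hemidesmosome protein of basal epithelial cells, had 4235 counts in tumour 1, or 61.2 CPM, against 0 counts in tumour 2 and 5 in tumour 3. That is at least 164-fold higher than the 3 counts which a count of 0 allows in tumour 2, and 193-fold higher than tumour 3. Basal epithelial markers moved with it, as 6 of 7 were at least 2-fold higher in tumour 1 than in both others, against 22.1% of all genes, among them Krt5 at 64.4 against 1.62 and 1.46 CPM and Krt14 at 107 against 12.4 and 6.74 CPM. The exception was the smooth muscle actin gene Acta2, at 263, 370 and 245 CPM, which made up much of the summed level of the 7 (540, 404 and 266 CPM). None was at 0 in any tumour. Their part in the Col17a1 level was not tested. Col23a1 was at 3.09, 1.62 and 2.22 CPM. The other transmembrane genes had few counts, with 191, 4 and 6 for Col13a1 and 120, 1 and 31 for Col25a1. Col26a1 had 67, 11 and 8 counts, and Col28a1, known from Schwann cells, had 87, 0 and 2. Among Schwann cell markers, Mbp (17.3, 11.9 and 7.18 CPM), S100b (10.8, 1.99 and 0.318 CPM) and Ngfr (4.61, 1.62 and 2.54 CPM) were highest in tumour 1, like Col28a1, while Pmp22 (21.4, 108 and 83.8 CPM) was highest in tumour 2. Their part in the Col28a1 counts was not tested.

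Over the 33 genes past the filter, 13 (39.4%) had a highest tumour at least 4-fold above the lowest, against 29.5% of all 12710 genes past it. These were 5 fibrillar, 5 FACIT and 1 gene each of the basement membrane, network and beaded filament classes. Within the lane shared by tumours 2 and 3, with the filter and scaling refitted, none of the collagen genes that passed was 4-fold apart, against 1.09% of all genes. They also came to 33, with Col22a1 in place of Col8a2. The median SD of log2 CPM over the tumours was 0.74 for the collagen genes, against 0.72 for all genes. The steadiest classes past the filter were the anchoring fibril gene (0.33) and the multiplexins (0.35), and FACIT genes had the widest spread (1.47).

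In tumour 1 the shares of collagen genes on either side were near those of all genes at 2-fold. At 4-fold the share below was still near, but the share above was not. At least 2-fold above both others were 7 of 33 (21.2%), against 22.1% of all genes, namely Col9a1, Col9a2, Col9a3, Col12a1, Col11a1, Col4a5 and Col8a2. At least 2-fold below both were 6 (18.2%), against 20.7%, namely Col5a3, Col27a1, Col11a2, Col2a1, Col6a6 and Col20a1. The classes differed in balance, since 4 of 7 FACIT genes were above and 1 below, while 1 of 11 fibrillar genes was above and 4 below. The median difference of tumour 1 from the mean of the others, in log2 CPM, was 2.49 for FACIT, 0.86 for basement membrane, -0.64 for fibrillar and -0.82 for beaded filament genes. It was -0.13 for all collagen genes and 0.11 for all genes, so the collagen median lay 0.24 below that of all genes. The sign of the collagen median was not stable, since it was 0.16 without tumour 2 and 0.29 without a filter. With library totals in place of TMM, the median difference of all genes moved by 0.84 (tumour 1), -0.70 (tumour 2) and -0.14 (tumour 3). The collagen median of tumour 1 was then 0.72, against 0.95 for all genes, and 8 members changed sign in tumour 1, Col1a1 and Col1a2 among them. At 4-fold, 6 of 33 collagen genes (18.2%) were above both others in tumour 1, against 6.05% of all genes, and 2 (6.06%) were below, against 8.21%. Those above included the type IX chains, and Col11a1 and Col8a2, which rest on 11 to 30 counts in tumours 2 and 3.

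Tumour 2 had 6 of 33 collagen genes at least 2-fold above both others (18.2%), against 5.43% of all genes. They were Col1a1, Col5a3, Col27a1, Col6a6, Col6a5 and Col14a1. With the trend of log2 differences on GC content and transcript length removed the count was 2, or near the 5.1% of all genes under that setting, and with library totals it was 3, against 1.48%. At least 2-fold below both others were 3 (9.09%), against 7.14%, namely Col9a1, Col9a3 and Col4a5. At 4-fold none was above or below both others, against 0.252% and 0.59% of all genes. The median difference of tumour 2 from the others was 0.48 for collagen genes, against -0.09 for all genes, and with library totals -0.22, against -0.78. Collagen genes past the filter had a median GC content of 56.1% and a median transcript length of 6048 bases, against 50.1% and 3360 bases for all genes. In tumour 3, Col2a1 was above both others (3.03%, against 0.865%) and Col8a2 below (3.03%, against 1.35%), where Col8a2 rests on 11 counts. At 4-fold none was above or below, against 0.0787% of all genes in each direction.

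Within the lane, tumour 2 was at least 2-fold above tumour 3 for 7 of 33 collagen genes (21.2%), against 7.39% of all genes, and at least 2-fold below for 4 (12.1%), against 8.81%. Those above were Col1a1, Col5a3, Col27a1, Col14a1, Col6a6, Col6a5 and Col8a2, of which Col14a1 and Col8a2 lay just past the threshold. Those below were Col9a1, Col9a3, Col4a5 and Col2a1. With filter and scaling refitted on these tumours alone the counts were 5 and 4 of 33, against 7.43% and 8.48% of all genes. At 4-fold none was above or below, against 0.448% and 0.755% of all genes. The median difference of tumour 2 minus tumour 3 was 0.52 for the collagen genes, against -0.03 for all genes.

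**Figure D3:**
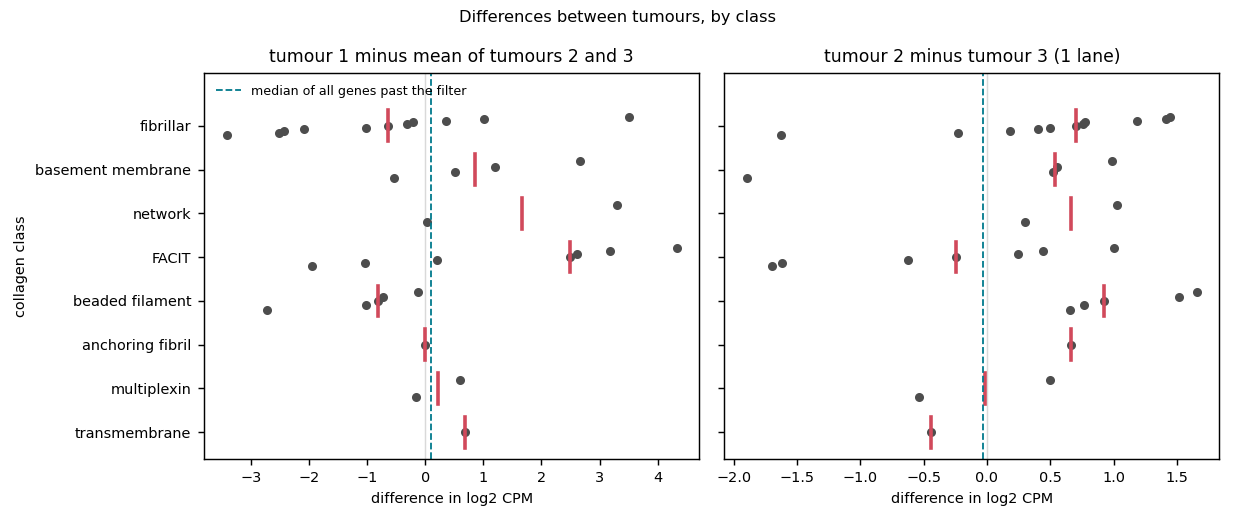
Difference in log2 CPM of the collagen genes past the filter, by class: tumour 1 minus the mean of tumours 2 and 3 (left) and tumour 2 minus tumour 3, from the same lane (right). Points are genes, red bars class medians and the dashed line the median of all genes past the filter. On the left, FACIT genes have a median of 2.49 and fibrillar genes of -0.64.

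Ratios between chains of a trimer do not depend on the scaling of libraries. Type I collagen is mostly built from alpha-1 and alpha-2 chains at 2 to 1. Per transcript length, Col1a1 was at 1.16 times Col1a2 in tumour 1, 1.85 times in tumour 2 and 1.32 times in tumour 3. The ratio of Col4a1 to Col4a2, whose trimer has the same build, was 1.497, 2.84 and 2.06, and that of Col5a1 to Col5a2 was 1.17, 2.13 and 1.65. For Col6a1 and Col6a2, which join 1 to 1, it was 1.16, 1.51 and 1.35. In all 4 pairs the ratio was lowest in tumour 1 and highest in tumour 2. The length used changes a ratio by the same factor in each tumour, so it cannot alter this order. It can alter the level. With the longest transcript the ratio was above 1 in every tumour. In tumour 1, however, Col5a1 was at 0.776 times Col5a2 with the median transcript length, and Col6a1 at 0.970 times Col6a2 with no division by length. Col6a3 was at 0.369, 0.182 and 0.218 times Col6a1, and Col8a1 at 5.60, 43.5 and 75.5 times Col8a2, with few Col8a2 counts in tumours 2 and 3. Across types, Col3a1 was at 0.653 times Col1a1 in tumour 1 against 0.163 and 0.263 times in tumours 2 and 3, whereas Col5a1 stayed at 0.0983, 0.0681 and 0.0908 times. The type IX chains, whose ratios were added after their values were seen, were unequal, with Col9a3 at 2.95, 0.569 and 1.20 times Col9a2 and Col9a1 at 0.477, 0.209 and 0.420 times. GC content of the longest transcript differs within pairs, at 58.9 and 55.7% for Col1a1 and Col1a2, 58.0 and 49.6% for Col5a1 and Col5a2, 56.7 and 55.2% for Col6a1 and Col6a2, and 57.7 and 60.6% for Col4a1 and Col4a2. Its part in these ratios was not tested.

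**Figure D4:**
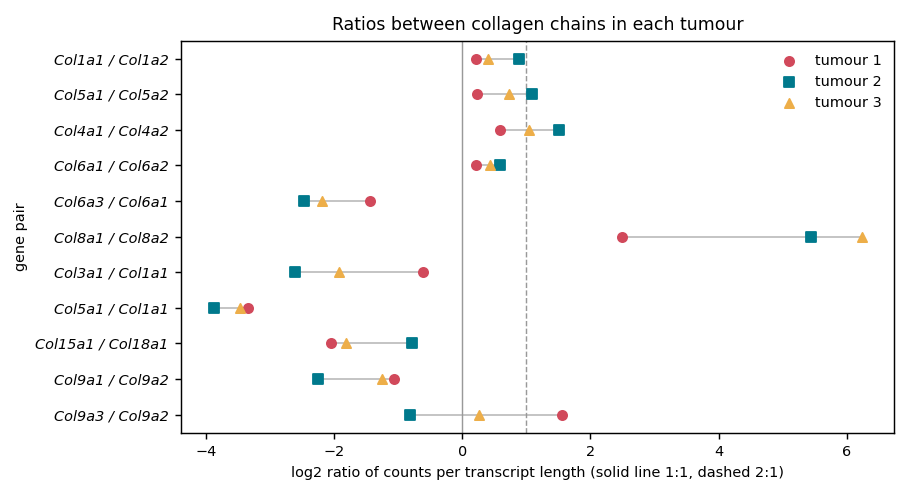
Log2 ratio of counts per transcript length between pairs of collagen genes in tumours 1, 2 and 3. The solid line marks 1 to 1 and the dashed line 2 to 1. Col1a1 to Col1a2, Col5a1 to Col5a2, Col4a1 to Col4a2 and Col6a1 to Col6a2 all lie above 0 with the longest transcript used here (2 of them not in tumour 1 with other lengths), with tumour 1 lowest and tumour 2 highest.

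Genes that act on collagen were measured beside them. Of 22 genes for folding and hydroxylation, all passed the filter, and 5 were at least 2-fold lower and 2 at least 2-fold higher in tumour 1 than in both others, against 20.7% and 22.1% of all genes. The prolyl hydroxylase subunit P4hb was at 587, 817 and 818 CPM, the lysyl hydroxylase Plod3 at 116, 592 and 406 CPM, and the collagen chaperone Serpinh1 at 383, 317 and 274 CPM. P3h2, which hydroxylates type IV collagen, had 41.3 CPM in tumour 1 against 4.23 and 2.10 CPM. Tumour 1 was thus low for Plod3 and high for P3h2. With TMM, the summed level of the 6 cross-linking genes, 5 lysyl oxidases and a transglutaminase, was lowest in tumour 1, at 371, 1056 and 551 CPM. There 4 of 6 members were at least 2-fold below both others, against 20.7% of all genes. Among them were Loxl2 at 52.1 against 405 and 151 CPM and Loxl1 at 55.2 against 296 and 173 CPM. The transglutaminase gene Tgm2 was above both others there, at 149 against 35.3 and 42.8 CPM. Of 8 procollagen processing genes 5 passed the filter, with the propeptidase gene Adamts14 at 18.9 CPM in tumour 1 against 485 and 270 CPM, and Bmp1, the C-proteinase, at 86.3, 171 and 141 CPM. Pcolce, which enhances that cleavage, was at 87.7, 214 and 174 CPM. With library totals P4hb was highest in tumour 1, at 0.0856, 0.0577 and 0.0751% of counts, and Bmp1 was at 0.0126, 0.0121 and 0.0129%. Plod3, Loxl1, Loxl2, Adamts14 and Pcolce stayed lowest in tumour 1. The sums and counts over these lists are given with TMM only.

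Binding partners, receptors and proteases showed similar contrasts. Bgn, the proteoglycan biglycan that binds fibrils, had 486 CPM in tumour 1 and 2499 and 1433 CPM in tumours 2 and 3, whereas the matricellular genes Sparc (823, 475 and 495 CPM) and Fn1 (583, 290 and 294 CPM) were highest in tumour 1. Of 9 fibril assembly partners, 5 were at least 2-fold below both others in tumour 1 and none above, against 20.7% and 22.1% of all genes. The basement membrane list split, with 4 of 11 at least 2-fold above and 1, the perlecan gene Hspg2, below, at 129 CPM against 13715 and 2840 CPM, where 22.1% of all genes were above and 20.7% below. The laminin gene Lamc1 was at 167, 126 and 107 CPM. Of 11 collagen receptors 8 passed the filter, with the integrin gene Itgb1 at 184, 238 and 212 CPM and the epithelial discoidin receptor Ddr1 at 135 CPM in tumour 1 against 15.9 and 29.3 CPM. Of 8 collagen degradation genes 7 passed the filter. Of these, 3 were at least 2-fold below both others in tumour 1 and 1 was above, against 20.7% and 22.1% of all genes. Mmp14, a membrane-bound collagenase, was at 238 against 905 and 483.5 CPM, and Mmp2 at 65.6, 176 and 121 CPM. With library totals Itgb1 was highest in tumour 1, at 0.0268, 0.0168 and 0.0195% of counts. Bgn, Hspg2, Mmp14 and Mmp2 stayed lowest there. The counts over these lists are given with TMM only.

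Stromal markers also differed between the tumours. Of 9 fibroblast markers, 5 were at least 2-fold lower in tumour 1 than in both others, against 20.7% of all genes, and their summed level was 369, 953 and 745 CPM, with none at 0. Dcn was at 75.1, 172 and 174 CPM, and with library totals at 0.01095, 0.0121 and 0.0160% of counts. The sums and counts over the marker lists are given with TMM only. Of 8 endothelial markers, 4 were at least 2-fold higher in tumour 2 than in both others, against 5.43% of all genes, with a summed level of 210, 1736 and 650 CPM. The 8 pericyte markers summed to 355, 3861 and 2073 CPM, most of it in tumours 2 and 3 from Des (11.2, 3185 and 1701 CPM), a gene that skeletal muscle also expresses. Adipocyte markers summed to 282, 204 and 146 CPM. In bulk tissue, fewer cells of a type and less RNA per cell cannot be told apart, and the part of these markers in the collagen levels was not tested.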

How the data were processed

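RNA from 3 tumours, extracted with a Qiagen RNeasy kit, was made into Illumina TruSeq mRNA libraries and read as pairs of 50 bases on a HiSeq, per the labels' protocols. Each deposited table gives 1 estimated count a gene (the NumReads of Salmon, per the file headers), with no scaling for depth or length. The submitters' processing notes also name STAR, SAMtools, Picard and build mm10. Of tool versions, annotation release and strand setting, each was not given in the sources used here. Estimates were rounded, and 13 collagen genes had a fractional value in some library. Genes were kept by filterByExpr (edgeR 4.0.16, R 4.3.3) with a minimum count of 10 and minimum total of 15, leaving 12710. TMM factors were 1.48, 0.722 and 0.936. Log2 CPM used a prior count of 2, and differences of at least 2-fold from both other tumours, or a 4-fold range, were counted without a test. The counting was tested on simulated data. Lengths, GC content and positions came from GENCODE M21 (GRCm38, also named mm10), in which 45213 symbols matched. Poisson intervals and floors of 3 counts cover counting error only. The replicate spread may be technical.

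The members, the gene lists, the chain pairs and the naming rule were chosen with earlier results of these data known. The rule takes all collagen genes, the 3 highest members of each other list and the one with the widest range, and chromosome 8 neighbours of Col4a1 and Col4a2. The full cartilage list, the Schwann cell markers and Tgm2 were added after their values were seen, and some Schwann cell markers are not reported here. Alternatives were library totals, DESeq2 1.42.0 size factors, other filters and prior counts, thinned counts, removal of the GC and length trend, other lengths and leaving out each tumour.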

Additional observations from a re-analysis of the deposited data

How the results depend on the processing

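No paired analysis was possible because all samples form 1 group. Of 148 recomputed values, 116 stayed within 1.5 times of a count or 1 SD of a value. The 148 cover the counts and medians over collagen genes and the ratio of fibrillar to basement membrane signal. They also cover the shares of the fibrillar, basement membrane, network and FACIT classes. The shares of the other classes and the ratios between chains are not among them. Leaving out 1 of 3 tumours cannot move a mean by 1 SD. The shares and the ratio recomputed in that way were therefore bound to be among those that stayed. With library totals, tumour 1 had 13 of 33 genes above both others, against 40.4% of all genes, and a median difference of 0.72, against 0.95. Tumour 2 had 3 above, against 1.48%, and a median of -0.22, against -0.78. Tumour 3 had 0 below, against 0.865%. Without a filter, tumour 1 had 12 above and a median of 0.29, tumour 2 had 8 below and tumour 3 had 0 below. Tumour 3 also had 0 below with a prior count of 10, with thinned counts and with the GC and length trend removed (1.29% of all genes). That removal left 2 genes above in tumour 2, against 5.1% of all genes. At 4-fold, tumour 1 had 2 below, against 8.21% of all genes, and tumours 2 and 3 had 0 on either side. For tumour 2 the all-gene shares were 0.252% above and 0.59% below, and for tumour 3 0.0787% each way. A 2-fold range was seen for 22 genes. Leaving out 1 tumour, the 4-fold range held for 0 to 13 genes. Tumour 1 then had 8 to 11 genes above and 6 to 12 below the other, with medians of -0.43 to 0.16. Tumour 2 had 5 to 12 above and 4 to 8 below, and tumour 3 had 4 to 6 above and 5 to 11 below, since a gene then has 1 tumour to pass in place of both others. Without tumour 1, tumour 2 had 5 above and 4 below, against 7.43 and 8.48% of all genes, and the 4-fold range held for 0, against 1.09%. Shares of all genes under the other settings are not reported here. The median length over all annotated transcripts, many of them short fragments, gave mean shares of 75.2% for fibrillar, 9.79% for basement membrane, 0.234% for network, 2.95% for beaded filament (12.8% in the report) and 2.80% for multiplexin genes (6.80%) and 2.94% for Col7a1 (1.38%), put the mean log2 ratio of Col1a1 to Col1a2 at 2.90, against 0.50, and of Col5a1 to Col5a2 at 0.08, against 0.68, and reversed that of Col15a1 to Col18a1, at 1.10 against -1.55. Without division by length the mean log2 ratio of Col6a1 to Col6a2 was 0.15, against 0.41. The cause of the other changes was not tested. DESeq2 size factors, a mean CPM of at least 5, a prior count of 0.5 and the tables without muscle genes and Rn18s-rs5, the last added after seeing the data, moved none of these counts by over 1.5 times and reversed no median. Depth limits the genes under about 20 counts in tumours 2 and 3.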
